A study of Rattus norvegicus with 18 samples.

Results

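Oligodendrocytes (OLGs) that had differentiated for 2 days with the p38 inhibitor PD169316 were compared with OLGs that had differentiated for 2 days without it. The comparison used the 6 arrays whose labels gave day 2, of 18 arrays in the series, with 3 arrays labelled control and 3 labelled PD169316. Arrays were taken under their labels. Each array is described on its own, because 1 library of each label lay with the other label. Whether these libraries were exchanged was not tested, and an exchange would alter every difference given under the labels.

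The cells were oligodendrocyte progenitors (OLPs) of neonatal Sprague-Dawley rats that were purified from mixed glial cultures and differentiated in vitro. The control cultures received the vehicle DMSO, and PD169316 blocks the kinases p38α and p38β. The other arrays were 3 each of day 0, day 1 control, day 1 PD169316 and day 4 PD169316. cRNA made from total RNA was hybridised to Illumina RatRef-12 BeadChips, which read each transcript with a set of coated beads. Nothing in the labels says whether the 3 arrays of a group came from separate cultures or animals, and the p-values therefore rest on a spread between samples that may be only technical.

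OLPs divide under mitogens, and after mitogen withdrawal they leave the cell cycle, switch on the genes of compact myelin and of lipid synthesis, and lose progenitor surface molecules such as the proteoglycan NG2. The p38 kinases respond to stress and growth factors, and in cultured oligodendroglia their inhibition is known to hold back myelin gene expression. Transcripts of myelin and of the progenitor state therefore change in opposite directions as untreated cells mature.

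Levels are given as log2 normalised intensity, so that a difference of 1 is a doubling. A probe was tested where it was detected on all 3 arrays of at least 1 group, which held for 10574 probes. A probe was called at an adjusted p under 0.05 in limma, with Benjamini-Hochberg adjustment over all probes tested. Between 9814 and 10773 probes were detected on each, the median intensity lay between 125.6 and 136.5, and a median of 42 or 43 beads stood behind a probe. PD169316 1 stood apart in its deviations from the probe medians of the day 2 arrays, with an interquartile range of 0.305 against 0.192 to 0.235 and with 54 probes off by more than 1 against 13 to 26.

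The transcripts did not divide by label. The library labelled day 2 control 3 was closest to the library labelled PD169316 2, with a Pearson correlation over probes of 0.997, against 0.986 and 0.987 with control 2 and control 1. Only 3 probes were more than 2-fold apart between control 3 and PD169316 2, whereas 267 and 280 were between control 3 and the other controls. The library labelled day 2 PD169316 1 was closest to control 1 and control 2, at 0.994 each, with 37 and 42 probes over 2-fold. It differed over 2-fold from PD169316 2 in 400 probes and from PD169316 3 in 504. Control 1 and control 2 had 19 such probes between them, and PD169316 2 and PD169316 3 had 9. These correlations are across probes of single arrays, which are not independent replicates.

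**Figure D1:**
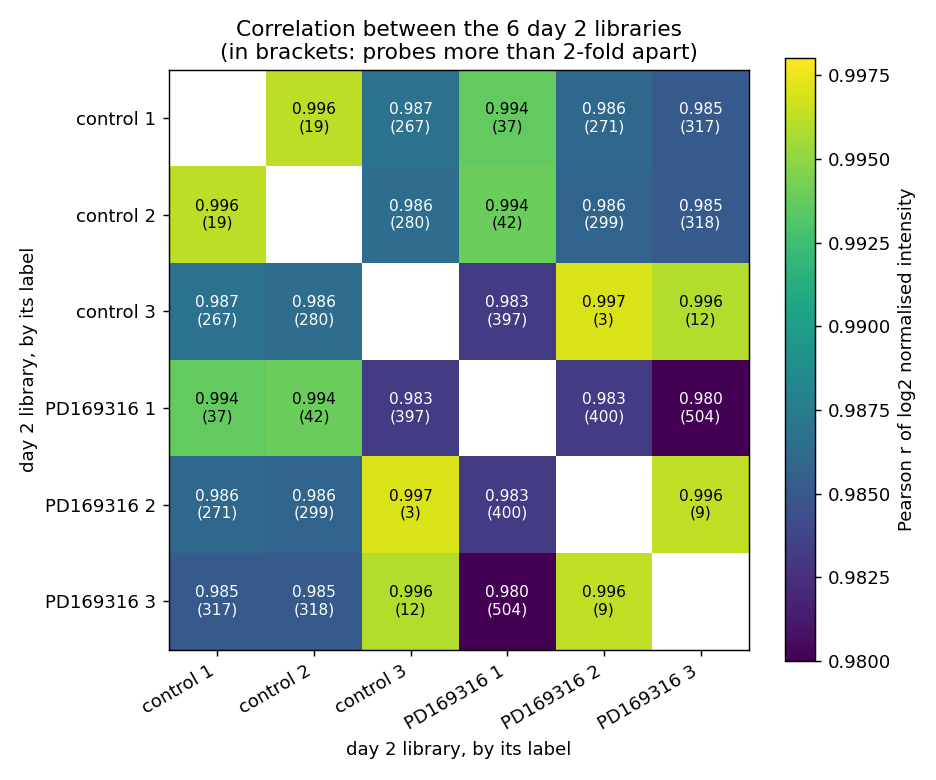
Each cell gives the Pearson correlation of log2 normalised intensity over 10574 probes between the day 2 libraries of its row and column, and in brackets the number of probes more than 2-fold apart. Control 3 reaches 0.997 with PD169316 2 and PD169316 1 reaches 0.994 with control 1 and control 2, above their values within their own labels.

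The log2 normalised intensities of control 3 and PD169316 2, the closest pair, differed by more than 3 bead standard errors in 14.4% of probes detected on both. The bead errors were those of the deposited intensities, before background correction and normalisation. Among replicate pairs of the other groups this share lay between 10.7% and 35.3%. The bead error covers noise within an array only, so that these shares do not tell whether a pair shares its RNA. Both libraries were kept as separate samples under their labels.

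The first principal component of the 6 arrays carried 67.9% of their variance. The libraries control 1, control 2 and PD169316 1 had the coordinates 0.36, 0.37 and 0.49 on it, and control 3, PD169316 2 and PD169316 3 had -0.37, -0.40 and -0.45. The second component carried 13.1%, and PD169316 1 stood apart on it at -0.71, while the other 5 libraries lay between -0.25 and 0.42. The median SD within a group was 0.149 for the day 2 controls and 0.177 for day 2 PD169316, against 0.0905 to 0.116 in the other groups.

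Against the other days, the libraries fell in the same order. Control 3, PD169316 2 and PD169316 3 correlated at 0.991 to 0.992 with the 3 day 1 PD169316 arrays and at 0.968 to 0.981 with those of day 4 PD169316. Control 1, control 2 and PD169316 1 correlated at 0.977 to 0.982 with day 1 PD169316 and at 0.985 to 0.991 with day 4 PD169316. With the day 0 arrays the first of these sets ranged from 0.972 to 0.978 and the second from 0.955 to 0.963.

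The probes that changed from day 0 to day 1 in control cells placed the arrays in the same way. Over 1454 probes that rose with differentiation, the mean deviation from the average of the 6 day 2 arrays was 0.089 in control 1, 0.052 in control 2 and 0.083 in PD169316 1. It was -0.073 in control 3, -0.074 in PD169316 2 and -0.077 in PD169316 3. The 1407 probes that fell with differentiation gave the opposite signs on every day 2 array. Control 1, control 2 and PD169316 1 thus lay further along the direction of early differentiation than control 3, PD169316 2 and PD169316 3. On the rising probes the day 0 arrays stood at -0.613 to -0.590, and the day 1 controls at -0.024 to 0.007. The day 4 PD169316 arrays, at -0.005 to 0.011, lay between these day 2 sets. The day 2 sets differed little beside the step from day 0, by which the probes were chosen.

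The response to PD169316 at day 1 offered another direction. At day 1, 1171 probes (11.1%) were called, 697 (6.59%) higher and 474 (4.48%) lower with PD169316. Over the 474 lower probes the deviation at day 2 was 0.043, 0.040 and -0.055 in controls 1 to 3, and 0.113, -0.048 and -0.092 in PD169316 1 to 3. Control 3 lay on the side to which the day 1 inhibitor arrays had moved, and PD169316 1 lay farthest on the other. Over the 697 higher probes the values were smaller, from -0.077 in PD169316 1 to 0.075 in PD169316 3. With the 100 probes of the largest rise, the signs of control 2, control 3 and PD169316 2 turned, so that the rising probes gave no firm order. At day 1 the arrays of the 2 labels had stood at -0.488 to -0.454 and 0.184 to 0.219 on the rising probes.

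**Figure D2:**
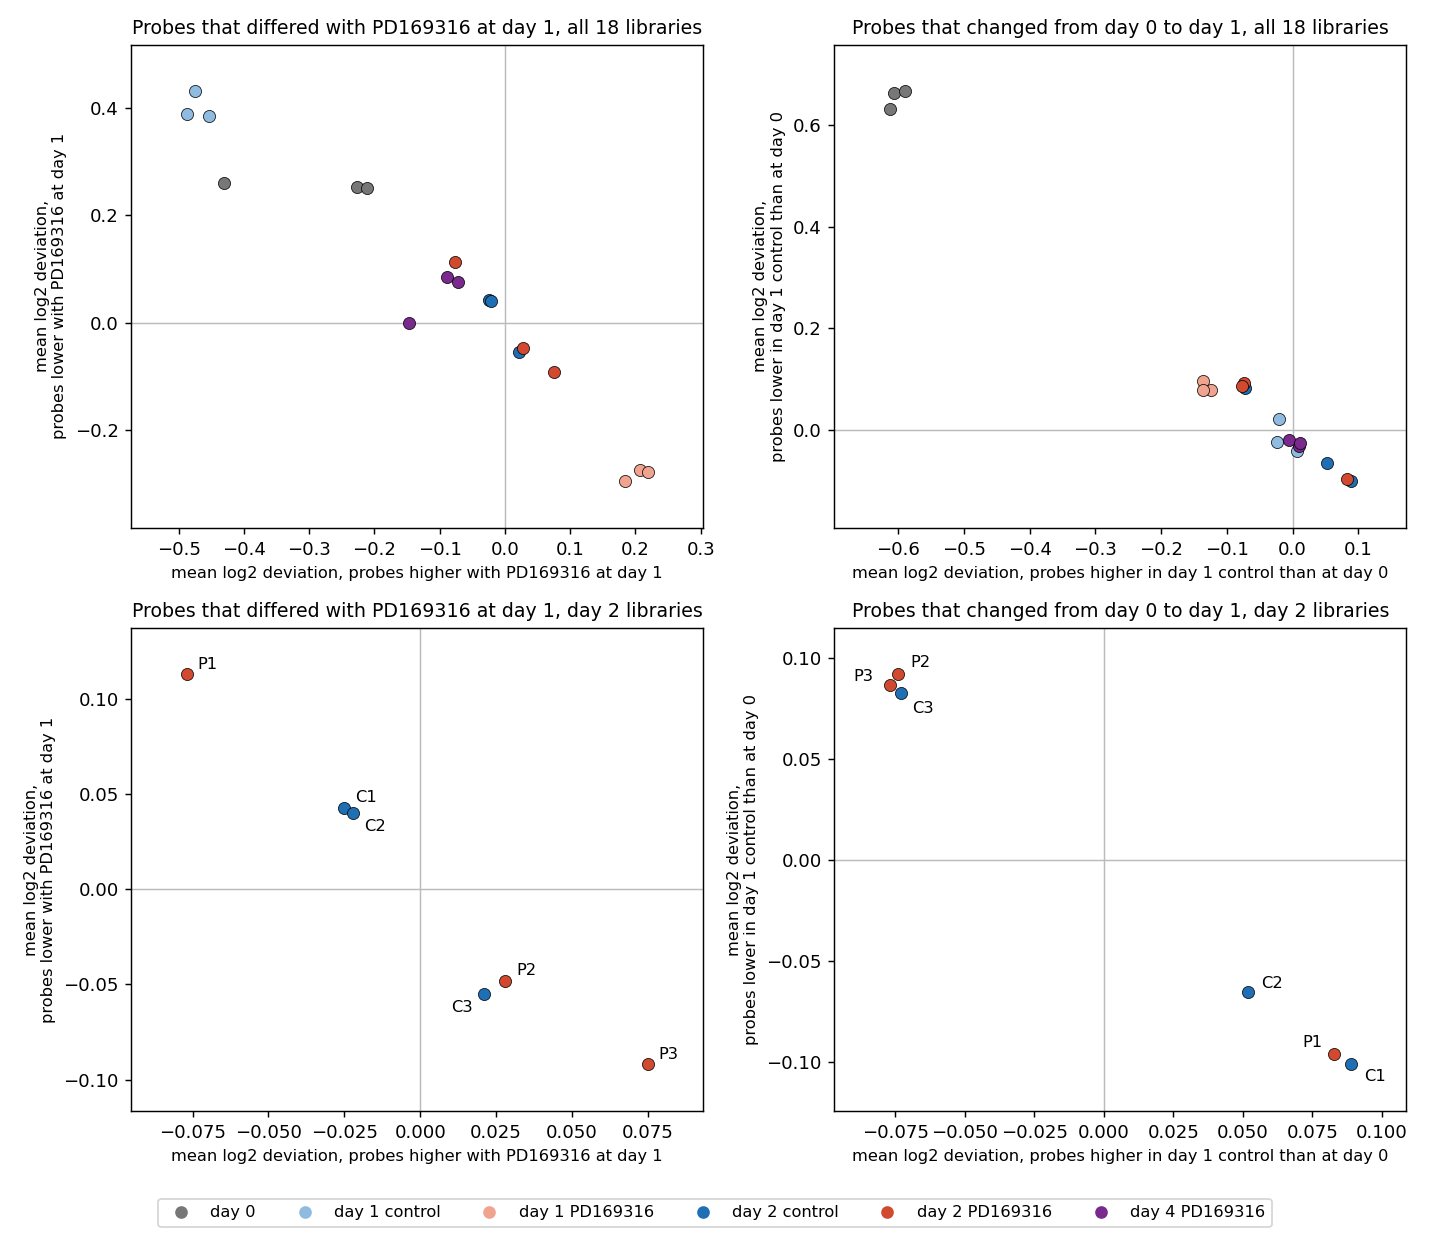
Each point is an array, with its mean log2 deviation from the average of the 6 day 2 arrays over probes that rose (horizontal) and fell (vertical) with PD169316 at day 1 (left) or from day 0 to day 1 in control cells (right). The lower panels show the day 2 arrays alone (C control, P PD169316, by label and replicate), where C3 lies beside P2 and P3, and P1 lies with C1 and C2 on the right.

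The genes with the most weight on the first component changed several-fold between arrays of the same label. Over the 6 arrays, 885 probes (8.37%) spanned at least 2-fold, and 31 (0.293%) at least 4-fold. The component was drawn from these same arrays, so that the values of its leading genes are a description and were not tested as such.

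At the end that was high in control 1, control 2 and PD169316 1, *Trh*, which encodes the precursor of thyrotropin-releasing hormone, was at 11.71, 11.72 and 9.70 in controls 1 to 3, and at 11.70, 9.58 and 9.44 in PD169316 1 to 3. *Ceacam4*, of the carcinoembryonic antigen family of adhesion molecules, was at 10.63, 10.66 and 8.12 in the controls and at 10.43, 8.10 and 8.16 with PD169316. *Sik1*, a salt-inducible kinase, was at 10.53, 10.53 and 8.67 in the controls and at 10.51, 8.76 and 8.67 with PD169316. In each case control 1, control 2 and PD169316 1 were close to each other and above the other 3 libraries, and the labels overlapped. *Aoc1*, an amine oxidase, *Man1a1*, a Golgi mannosidase, *Pcolce*, an enhancer of procollagen processing, *Tmprss5*, a membrane serine protease, and *Pip* followed the same pattern, with ranges of 2.29 to 2.49. *Wnt4*, a Wnt ligand, *Ppef1*, a calcium-dependent phosphatase, and *Hsf2bp* did so too but were detected on only 3 of the 6 arrays.

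At the end that was high in control 3, PD169316 2 and PD169316 3, *Me3*, the mitochondrial NADP-dependent malic enzyme, was at 5.61, 5.97 and 8.53 in the controls and at 6.21, 8.37 and 8.56 with PD169316. Its range of 2.95 was the widest among the genes named here. *Capn6*, a calpain without the catalytic cysteine, was at 7.06, 6.80 and 8.99 in the controls and at 6.82, 9.09 and 9.06 with PD169316. *Ramp1*, a subunit of the receptor for calcitonin gene-related peptide, was at 8.29, 8.16 and 10.09 in the controls and at 7.92, 9.95 and 10.15 with PD169316. The labels overlapped for all of these. *Eef2k*, the kinase of translation elongation factor 2, *Kcnip2*, a partner of potassium channels, *Rasd2*, a small GTPase, *G0s2*, an inhibitor of triglyceride lipase, *Gjb6*, which encodes connexin 30, and *Ifi27l2b* shared the order of the arrays. Of these *Rasd2* was detected on only 3 of the 6 arrays and *Gjb6* on 4.

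A pair of metallothionein genes, whose products bind zinc and copper, belonged to this end but also set PD169316 1 apart. *Mt1* was at 12.77, 12.71 and 13.74 in the controls and at 11.78, 13.77 and 13.95 with PD169316. *Mt3*, the brain metallothionein, was at 13.02, 12.93 and 14.00 in the controls and at 11.72, 13.94 and 14.01 with PD169316. In both, control 3 matched PD169316 2 and PD169316 3, control 1 and control 2 were lower, and PD169316 1 was the lowest of all. The promoters of both genes lie on rat chromosome 19 and are shown because the pair moved together across the arrays, with matches to the core of the metal response element in capitals (TGCACNC or TGCGCNC, on either strand). The windows run from 250 bases before to 50 after the transcription start (RefSeq, GRCr8) at chr19:10832926-10833225 for *Mt1* and chr19:10856031-10856330 for *Mt3*, both on the minus strand.
Mt1: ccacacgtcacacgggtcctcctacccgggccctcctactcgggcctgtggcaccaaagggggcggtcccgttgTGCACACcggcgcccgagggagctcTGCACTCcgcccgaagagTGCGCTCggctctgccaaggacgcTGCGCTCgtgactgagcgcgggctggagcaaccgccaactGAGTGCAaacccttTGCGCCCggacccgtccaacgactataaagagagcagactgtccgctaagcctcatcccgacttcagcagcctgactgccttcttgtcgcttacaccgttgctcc
Mt3: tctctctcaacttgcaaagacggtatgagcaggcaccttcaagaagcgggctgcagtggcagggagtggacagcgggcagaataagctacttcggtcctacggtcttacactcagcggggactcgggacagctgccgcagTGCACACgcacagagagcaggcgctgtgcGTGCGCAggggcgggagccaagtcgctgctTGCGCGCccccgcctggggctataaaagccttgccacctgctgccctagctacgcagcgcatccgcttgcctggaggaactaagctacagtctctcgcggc
*Mt1* held 6 matches and *Mt3* held 3, whereas 24.2% of 33469 rat promoter windows held at least 1 match and 1.68% at least 3. A match describes the letters only.

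Myelin genes were divided by array, not by label. *Mobp*, a protein of the compact myelin sheath, was at 13.67, 13.55 and 12.13 in the controls and at 13.84, 12.26 and 12.20 with PD169316. *Mag*, an adhesion molecule of the inner myelin membrane, was at 9.91, 10.11 and 8.78 in the controls and at 10.06, 8.83 and 8.43 with PD169316. *Mbp*, myelin basic protein, was at 13.62, 13.58 and 12.89 in the controls and at 13.96, 12.80 and 12.42 with PD169316. *Enpp6*, a choline phosphodiesterase of newly formed OLGs, was at 11.81, 11.76 and 10.36 in the controls and at 11.93, 10.30 and 10.03 with PD169316. PD169316 1 had the highest value of all 6 arrays for *Mobp*, *Mbp* and *Enpp6*, and control 3 lay among PD169316 2 and PD169316 3. The proteinase gene *Adamts4* and *Ppp1r14a*, which encodes an inhibitor of myosin phosphatase, had the widest ranges of the list, at 1.97 each.

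Of 32 measured genes of compact myelin and the mature OLG, 0 were called at day 2, against 0% of all probes. Under the labels the mean was lower with PD169316 for 23 and higher for 9, where 50.6% of all probes were higher. The median log2 difference was -0.09, against 0.00266 over all probes. For *Mbp* the difference was -0.30 (95% interval -0.95 to 0.34) and for *Mag* -0.49 (-1.24 to 0.26), so that the arrays as labelled allowed both a fall and a small rise. The median of the list in each array was 0.21, 0.12 and -0.19 in controls 1 to 3 and 0.24, -0.22 and -0.18 in PD169316 1 to 3, as deviations from the mean of the 6 arrays. The weight on the first component was positive for 25 of the 32 genes, against 49% of all probes, and 10 spanned at least 2-fold over the arrays, against 8.37%.

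Genes of cholesterol synthesis, which supplies the main lipid of myelin, divided in the same way. *Cyp51*, which demethylates lanosterol, was at 8.84, 9.14 and 7.85 in the controls and at 9.23, 7.99 and 8.42 with PD169316. *Idi1*, the isomerase of the isoprenoid pathway, was at 12.64, 12.67 and 11.73 in the controls and at 12.64, 11.71 and 12 with PD169316. Of 17 measured genes 0 were called, against 0% of all probes. A positive weight on the first component was held by 16 of them, against 49% of all probes. Of 13 genes of fatty acid and myelin lipid synthesis 0 were called, against the same 0%. The ceramide synthase gene *Cers2* was the one with the widest range, of 0.89, and was high in the same libraries.

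Regulators that promote myelin genes varied less than the myelin genes, with a median range of 0.46 against 0.59. Over all probes the median range was also 0.46. *Nkx6-2* was at 12.85, 12.76 and 11.95 in the controls and at 12.85, 11.88 and 11.70 with PD169316, and the deacetylase gene *Hdac11* was at 13.49, 13.36 and 12.77 in the controls and at 13.62, 12.80 and 12.74. *Sox8* ran the other way, at 11.78, 11.68 and 12.12 in the controls and at 11.86, 12.23 and 12.07 with PD169316. Of 16 such regulators 0 were called, and 11 had a range under 0.5 over the 6 arrays, against 55.1% of all probes.

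Progenitor genes formed the mirror image of the myelin genes. *Cspg4*, which encodes NG2, was at 9.27, 9.23 and 10.60 in the controls and at 9.08, 10.59 and 10.64 with PD169316. *Cspg5*, the proteoglycan neuroglycan C, was at 11.31, 11.23 and 12.53 in the controls and at 11.23, 12.58 and 12.53 with PD169316. *Pdgfra*, the receptor for the progenitor mitogen PDGF, was at 11.02, 10.98 and 11.70 in the controls and at 11.18, 11.76 and 11.71 with PD169316. *Cacng4*, an auxiliary subunit of AMPA receptors, had the widest range of the list at 2.50, from 4.81 in control 1 to 7.32 in control 3. In *Cspg4*, *Cspg5* and *Pdgfra* control 3 was with PD169316 2 and PD169316 3, and PD169316 1 was with control 1 and control 2. For *Cacng4* PD169316 1, at 6.0, lay between control 2 at 5.49 and PD169316 3 at 6.50.

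All 15 measured progenitor markers had a mean at or above the control mean with PD169316, and 0 were called. Of all probes 50.6% had the higher mean with PD169316. The median log2 difference of the 15 markers was 0.32, against 0.00266 over all probes. The labelled groups were apart for 0 of the 15, against 6.34% of all probes. The list median was -0.38, -0.41 and 0.31 in controls 1 to 3 and -0.23, 0.37 and 0.30 in PD169316 1 to 3. At day 1 the median difference with PD169316 was below 0 for both kinds of gene. It was -0.32 for the progenitor markers and -0.41 for the myelin genes, against -0.00447 over all probes. Of 17 inhibitors of differentiation 0 were called. Among them *Egr1*, an immediate early transcription factor, was at 7.87, 7.98 and 9.16 in the controls and at 7.79, 9.22 and 9.42 with PD169316, and *Sox6* was at 9.49, 9.58 and 10.32 in the controls and at 9.82, 10.46 and 10.29.

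**Figure D3:**
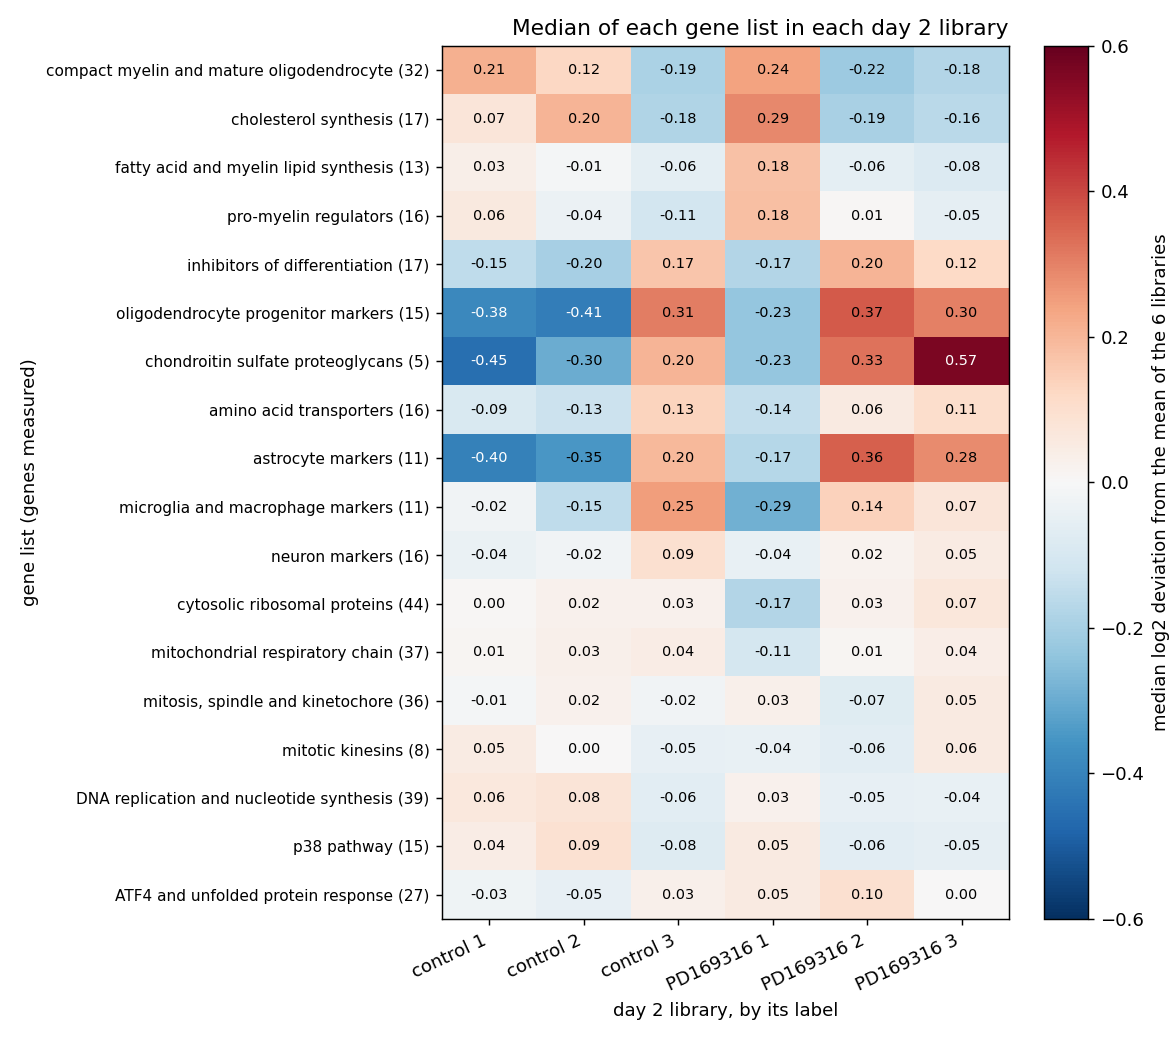
Each cell gives the median over the genes of a list of the log2 deviation of a day 2 library from the mean of the 6 libraries, with the number of genes measured in brackets. Myelin and cholesterol genes are high and progenitor genes low in control 1, control 2 and PD169316 1, while the lists of mitosis, kinesins and replication stay between -0.07 and 0.08.

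Most astrocyte markers moved with this division, and microglia markers did so in part. The astrocyte list, with 11 of 14 genes measured, had medians of -0.40, -0.35 and 0.20 in controls 1 to 3 and -0.17, 0.36 and 0.28 in PD169316 1 to 3. Its summed intensity lay between 24300 and 42900 in the controls and between 25600 and 45100 with PD169316, and *Aldh1l1*, a defining marker, had no named probe. *Gfap* was at 13.51, 13.37 and 13.88 in the controls and at 13.60, 13.84 and 13.90 with PD169316. *S100b*, which OLGs also express, was at 10.04, 9.98 and 11.38 in the controls and at 9.94, 11.31 and 11.44 with PD169316. Of the 11 genes 9 had a negative weight on the first component, against 51% of all probes. The weight was positive for *Aqp4* and *Agt*. *Aqp4* was at 6.69, 7.11 and 7.09 in the controls and at 7.58, 7.07 and 7.12 with PD169316. The microglia and macrophage list, with 11 of 18 genes measured, summed to between 24200 and 34000 in the controls and 22500 and 31100 with PD169316. Of its defining markers *Cx3cr1* was detected on 0 of 6 arrays, whereas *Trem2* reached 11.27 in control 3 and was at 10.04 in PD169316 1. The medians of this list were -0.02, -0.15 and 0.25 in controls 1 to 3 and -0.29, 0.14 and 0.07 in PD169316 1 to 3. *Cd14* ran the other way, at 8.63, 8.48 and 8.15 in the controls and at 8.44, 7.91 and 8.05 with PD169316, and *Ctss* had a range of 0.32. No marker of either list was called. In RNA of whole cultures, fewer cells of a type and less RNA per cell cannot be told apart, and the part of these cells in the division of the arrays was not tested.

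Single genes of the lists of G1/S regulators and amino acid transporters divided the arrays too. *Ccnd1*, which encodes cyclin D1, was at 12.61, 12.53 and 13.51 in the controls and at 12.39, 13.43 and 13.45 with PD169316. *Myc* was at 10.70, 10.65 and 11.51 in the controls and at 10.68, 11.55 and 11.51 with PD169316. *Slc7a5*, a transporter of large neutral amino acids, was at 9.86, 9.81 and 11.18 in the controls and at 9.75, 11.26 and 11.20. *Asns*, asparagine synthetase, and *Slc7a3*, a transporter of cationic amino acids, followed with ranges of 1.31 and 1.34. Of 16 amino acid transporters 0 were called, and 12 had a negative weight on the first component, against 51% of all probes. The taurine transporter gene *Slc6a6* ran the other way, at 9.54, 9.43 and 8.59 in the controls and at 9.65, 8.43 and 8.49 with PD169316.

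The 15 measured genes of the p38 pathway had a median range of 0.35, against 0.46 over all probes. Of these genes 1 spanned at least 2-fold, against 8.37% of all probes. The 2 members with the widest ranges, named for their range, divided the arrays as above. *Map2k6*, the kinase that activates p38, was at 9.99, 9.89 and 10.86 in the controls and at 9.79, 10.83 and 10.80 with PD169316. *Hspb1*, the small heat shock protein phosphorylated downstream of p38, was at 10.71, 10.64 and 9.93 in the controls and at 10.45, 9.80 and 9.76. *Atf2*, a transcription factor that p38 phosphorylates, did not, at 6.31, 6.25 and 6.24 in the controls and at 6.27, 5.68 and 5.72. *Dusp1*, a phosphatase of MAP kinases from the list of ERK feedback genes, was at 10.68, 10.64 and 9.75 in the controls and at 10.73, 9.57 and 9.68. Of 15 measured pathway genes 0 were called, and the differences under the labels ran from -0.42 to 0.23.

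The library labelled PD169316 1 also differed from all the others. Of 44 cytosolic ribosomal protein genes, the median deviation was -0.17 in PD169316 1 and between 0.005 and 0.07 in the other 5 libraries. *Rpl24* was at 12.33, 12.49 and 12.62 in the controls and at 11.74, 12.59 and 12.61 with PD169316. Of 37 genes of the mitochondrial respiratory chain the median was -0.11 in PD169316 1 and 0.01 to 0.04 elsewhere, and *Ndufa1*, a subunit of complex I, was at 11.46 there and at 12.25 or more on the other arrays. *Fmc1*, an assembly factor of the mitochondrial ATP synthase, was at 9.14 in PD169316 1 and between 10.21 and 10.46 elsewhere. *Uqcc5*, an assembly factor of complex III, was at 8.57 against 9.69 to 9.92. The number of probes detected in PD169316 1, 10097, and its median intensity, 131.3, lay within the range of the other day 2 arrays. Whether RNA quality had a part in these values was not tested.

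**Figure D4:**
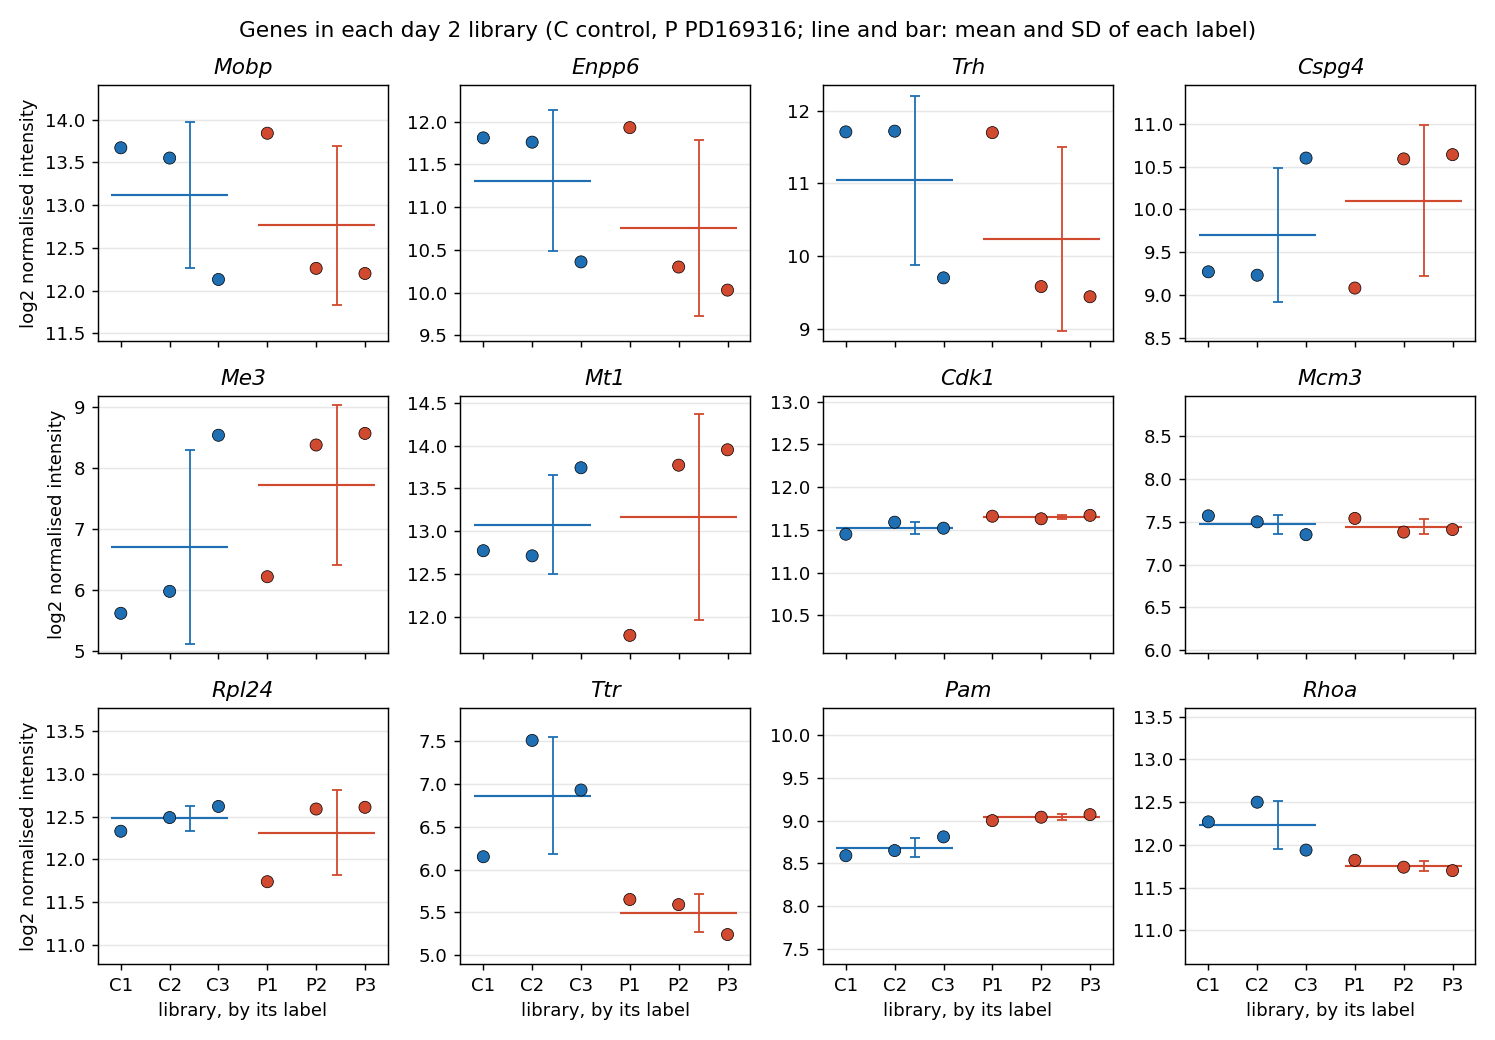
Points are the log2 normalised intensities of 12 genes in the day 2 libraries (C control, blue; P PD169316, red), and lines with bars are the mean and SD of each label (n = 3). *Mobp*, *Enpp6*, *Trh*, *Cspg4*, *Me3* and *Mt1* divide the libraries across the labels, *Cdk1* and *Mcm3* vary by 0.23 or less, *Rpl24* is low in PD169316 1 alone, and *Ttr*, *Pam* and *Rhoa* keep the labels apart.

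With the labels as given, no probe passed. In limma 0 of 10574 probes (0%) were called, the smallest adjusted p was 0.888, and 469 (4.44%) had an unadjusted p under 0.05, 240 (2.27%) higher and 229 (2.17%) lower with PD169316. The fold that the study required, together with such a p from limma, was met by 241 probes (2.28%). The labelled groups did not overlap for 670 probes (6.34%), with PD169316 higher for 332 (3.14%) and lower for 338 (3.2%). At day 1 the corresponding share of probes without overlap was 41.5%. The PD169316 mean was the higher at day 2 for 55.7% of the probes that had risen with PD169316 at day 1 and for 46.2% of those that had fallen, against 50.6% of all probes. Across the 10574 probes, the day 2 and day 1 differences had a correlation of 0.107, given as a description since probes are not independent.

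Among the genes whose labelled groups lay apart, those with the smallest p are given as values, since none was called. *Ttr*, which encodes the thyroid hormone carrier transthyretin, was at 6.15, 7.51 and 6.93 in the controls and at 5.65, 5.59 and 5.24 with PD169316, a difference of -1.37 (95% interval -2.05 to -0.69). *Acan*, the proteoglycan aggrecan, was at 5.56, 5.76 and 5.95 in the controls and at 6.11, 6.12 and 6.58 with PD169316, a difference of 0.52 (0.24 to 0.79). *Pam*, which amidates neuropeptides, was at 8.59, 8.65 and 8.81 in the controls and at 9.0, 9.04 and 9.07 with PD169316, a difference of 0.35 (0.16 to 0.54). *Rhoa*, a small GTPase of the actin cytoskeleton, was at 12.27, 12.50 and 11.94 in the controls and at 11.82, 11.74 and 11.70, a difference of -0.48 (-0.78 to -0.19). In *Pam* and *Rhoa* the control library nearest to the PD169316 values was control 3. The adjusted p of each of these 4 genes was 0.888 in limma. The 95% intervals were not adjusted for the choice of these genes by their small p, so that they are no evidence of a difference.

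*Calcrl*, the calcitonin receptor-like receptor that pairs with the product of *Ramp1*, *Cbarp*, a regulator of calcium channels, *Cc2d1a* and *Pde12*, a phosphodiesterase of short oligoadenylates, were also apart with higher PD169316 values, by 0.43 to 0.69. *Clec7a*, the receptor dectin-1, *Cdhr1*, a cadherin-related protein, *Zmat5* and *Ccdc71* were apart with lower values, with differences of -0.50 to -0.36. *Calcrl* and *Clec7a* were detected on 2 of the 6 arrays each, so that most of their values lay near the background.

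Genes of mitosis and DNA replication varied less over the 6 arrays than those of myelin, and none spanned 2-fold. *Cdk1*, the kinase that drives entry into mitosis, was at 11.45, 11.59 and 11.52 in the controls and at 11.66, 11.63 and 11.67 with PD169316. *Ccna2*, which encodes cyclin A2, was at 9.12, 9.10 and 9.06 in the controls and at 9.21, 9.11 and 9.10. *Mcm3*, a subunit of the replicative helicase, was at 7.57, 7.50 and 7.35 in the controls and at 7.54, 7.38 and 7.41. *Aurkb*, the mitotic kinase Aurora B, was at 9.86, 10.12 and 9.83 in the controls and at 9.96, 9.84 and 9.96. Control 3 was the lowest of the 6 arrays for *Ccna2*, *Mcm3* and *Aurkb*, and PD169316 1 was the highest for *Ccna2*. The ranges of these genes were small, at most 0.29. The labelled groups were apart for *Cdk1*, by less than the spread within the controls, and overlapped for the other 3. Of 36 measured genes of mitosis, spindle and kinetochore, 0 were called and 0 spanned 2-fold, with a median range of 0.34 against 0.46 over all probes. Of 39 genes of DNA replication and nucleotide synthesis 0 were called and 0 spanned 2-fold, and of 8 mitotic kinesins likewise 0 and 0. The weight on the first component was positive for 27 of the 39 replication genes, 21 of the 36 mitosis genes and 4 of the 8 kinesins, against 49% of all probes. The replication list had small medians, of 0.06, 0.08 and -0.06 in controls 1 to 3 and 0.03, -0.05 and -0.04 in PD169316 1 to 3. Their signs were those of the myelin list. The widest range was 0.81 in the mitosis and replication lists, for *Cdca3* and *Orc1*. Among the 16 cyclins, CDKs and G1/S regulators, *Ccnd1* spanned over 2-fold and *Ccnf*, at 7.90, 7.84 and 7.17 in the controls and at 7.84, 7.10 and 7.27 with PD169316, ran opposite to it.

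The promoters of *Cdk1*, at chr20:19265043-19265342 on the plus strand, and of *Aspm*, a spindle pole gene, at chr13:53625334-53625633 on the plus strand, are shown because both genes rose at day 1 and stayed level over the day 2 arrays. Capitals mark the CCAAT box (CCAAT) and the cell cycle homology region (TTTGAA or TTCGAA), letters known from promoters of mitotic genes, on either strand (RefSeq, GRCr8).
Cdk1: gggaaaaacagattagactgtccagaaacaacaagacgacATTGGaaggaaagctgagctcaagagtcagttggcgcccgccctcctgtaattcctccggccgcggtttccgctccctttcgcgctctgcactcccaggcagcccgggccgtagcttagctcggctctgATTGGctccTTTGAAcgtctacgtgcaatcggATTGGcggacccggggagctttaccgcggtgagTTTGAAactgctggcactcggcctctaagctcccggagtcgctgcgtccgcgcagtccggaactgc
Aspm: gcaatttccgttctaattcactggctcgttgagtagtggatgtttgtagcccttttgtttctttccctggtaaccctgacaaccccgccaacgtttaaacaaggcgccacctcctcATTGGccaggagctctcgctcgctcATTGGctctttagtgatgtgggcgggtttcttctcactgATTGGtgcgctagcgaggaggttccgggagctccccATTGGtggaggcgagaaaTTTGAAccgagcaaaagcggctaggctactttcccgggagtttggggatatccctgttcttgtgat
*Cdk1* held 2 matches to the homology region and 3 to CCAAT, and *Aspm* held 1 and 4. Of all 33469 windows, 7.95% held both motifs at least once, 19.7% the homology region and 37.5% CCAAT.

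Whether PD169316 acted differently on the 2 days was tested in the same limma model. The test passed for 407 of 10574 probes (3.85%), of which 161 (1.52%) were above 0 and 246 (2.33%) below 0, where a value below 0 means that PD169316 minus control was lower at day 2 than at day 1. The mitosis list had 22 of its 36 genes below 0, the replication list 25 of 39 and the kinesins 6 of 8, and none of them above 0. At day 1, 35, 31 and 8 genes of these lists had risen with PD169316, against 6.59% of all probes. The day 1 difference enters the test, so that these counts are not independent of it, and the study had named several of these genes from the same arrays.

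For *Cdk1* the means were 10.05 in day 1 control and 11.48 with day 1 PD169316, and 11.52 ± 0.07 and 11.65 ± 0.02 in the day 2 groups (SD, n = 3). The difference was 1.44 (standard error 0.18, adjusted p = 8.1e-05) at day 1 and 0.13 (standard error 0.18, adjusted p = 0.899) at day 2 in limma, and the change between the days was -1.30 (adjusted p = 0.0077). *Mcm3* went from 6.51 in day 1 control to 7.47 ± 0.12 in day 2 control, and was at 7.95 with day 1 PD169316 and 7.44 ± 0.08 with day 2 PD169316. *Aurkb* went from 8.33 to 9.94 ± 0.16 in the controls and from 10.02 to 9.92 ± 0.07 with PD169316. In these genes the control level at day 2 lay above that at day 1. That step between control groups was not tested here. *Id1*, an inhibitor of differentiation, had a change between the days of -1.07 (limma, adjusted p = 0.00042), with all 6 day 2 arrays between 9.46 and 9.77.

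**Figure D5:**
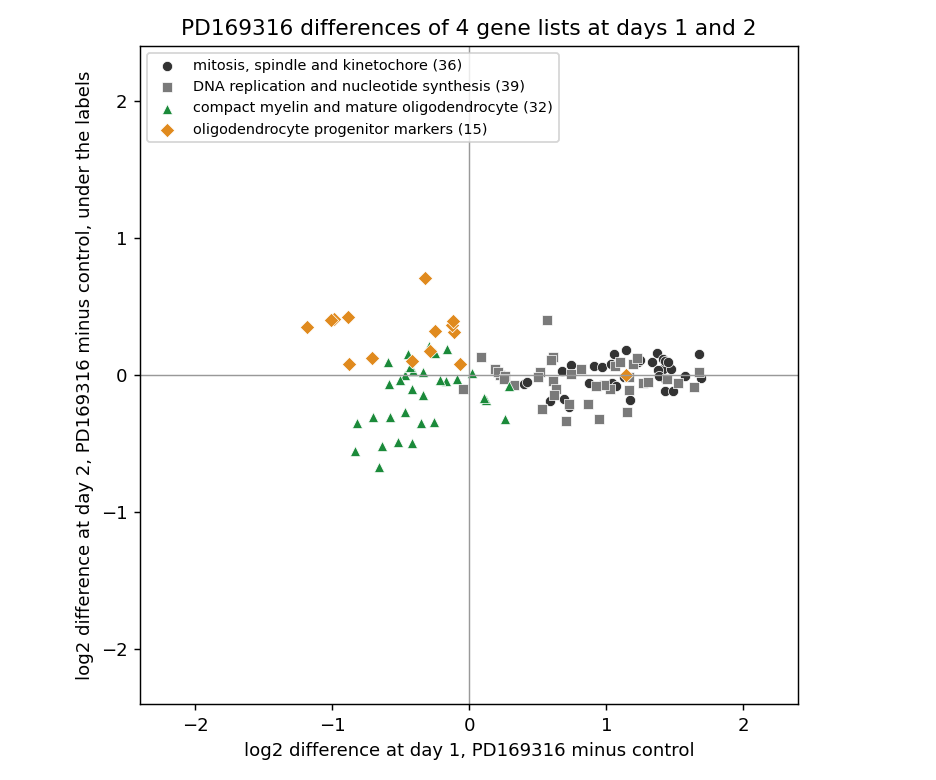
Each point is a gene of 4 lists, with its log2 difference between PD169316 and control at day 1 (horizontal) and at day 2 under the labels (vertical). Genes of mitosis and replication lie almost all above 0 at day 1 and stay within -0.34 and 0.40 at day 2, and progenitor markers lie at or above 0 at day 2.

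Above 0 were *Cdkn1c*, the CDK inhibitor p57, which had fallen by 1.97 at day 1, and *Fyn*, a kinase of the Src family that promotes OLG differentiation. At day 2 *Cdkn1c* was at 7.73, 7.53 and 7.62 in the controls and at 8.05, 7.76 and 7.52 with PD169316, and *Fyn* was at 12.04, 11.74 and 11.60 in the controls and at 12.06, 11.59 and 11.59. The change between the days was 2.12 for *Cdkn1c* (limma, adjusted p = 0.00028) and 0.88 for *Fyn* (limma, adjusted p = 0.0091). The mean of *Cdkn1c* was 9.18 in day 1 control and 7.63 in day 2 control. Chondroitin sulfate proteoglycans counted 2 of 5 measured genes above 0, and pro-myelin regulators 4 of 16, against 1.52% of all probes.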

How the data were processed

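The authors hybridised labelled cRNA to RatRef-12 arrays and deposited, for each probe and array, the mean bead intensity on a linear scale, without normalisation between arrays, the count of beads, the standard error over beads, and a detection p-value against negative control beads. The scanner software was not given in the sources used here, and the study's own ratios and p-values, made in FlexArray, were not used. From the deposited values, intensities were background-corrected and quantile normalised as log2 values by neqc in limma 3.58.1 (R 4.3.3; offset 16). A probe was kept if its detection p was below 0.01 on every array of 1 or more of the 6 groups (10574 of 22523, of which 7720 carry a symbol). Group means of all 18 arrays were fitted with lmFit and eBayes (12 residual and 3.16 prior degrees of freedom) with Benjamini-Hochberg adjustment across every probe kept. Intervals are at 95% confidence. The number of beads and of arrays limits the precision.

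Genes were named by rule: 12 at each end of the first and 5 at each end of the second principal component of the day 2 arrays, 6 in each direction with the smallest p among those whose labels did not overlap, up to 4 of each of 28 lists with the widest range, and genes that the study tabulates. Of these, the text gives those that show a pattern. A gene is represented by the probe the study lists or by its probe of highest mean. The arrays compared, the members and the lists were chosen with earlier results of these data known. Deviations are from the mean of the 6 day 2 arrays.

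Alternatives were the deposited log2 intensities, quantile normalisation alone, the 75th percentile as the scale, no filter or detection on all 18 arrays, fewer arrays in the fit, a replicate block, array weights, an offset of 50, criteria of 1.25-fold with unadjusted p, and leaving out libraries. The fit was tested on simulated data. Promoter motifs were searched with Python 3.11.15. Of the 28 lists, that of sex-linked genes had 0 members among the probes kept.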

Additional observations from a re-analysis of the deposited data

Results flagged for a closer look

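The difference between the PD169316 effects at day 2 and day 1 passed limma's test for 407 probes, the largest family of results that call for a second look. Below 0 among genes of the cell cycle were *Aurkb* (-1.71), *Ccna2* (-1.66), *Kifc1* (-1.54), *Mcm3* (-1.47), *Kif23* (-1.40), *Nuf2* (-1.34), *Aspm* (-1.33), *Cdk1* (-1.30), *Mcm6* (-1.27), *Prim1* (-1.06) and *Rfc3* (-1.0), as log2 differences. Each of these 11 passed without any 1 of the 6 day 2 libraries, *Aurkb* with values from -1.76 to -1.62 and *Mcm3* from -1.54 to -1.42. These genes and those that follow were listed because they passed this test, and no day 1 library was left out. With the deposited log2 intensities 18 probes passed, 13 above 0 and 5 below 0, so that most of the 11 did not pass there.

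Also below 0 were *Id1* (-1.07), the intermediate filament gene *Nes* (-1.14), *Slc7a3* (-1.66), *Nqo1*, a quinone reductase of the oxidative stress response (-1.17), and *Gldn*, which encodes gliomedin (-1.63). Above 0 were *Cdkn1c* (2.12), *Fyn* (0.88), *Sox8* (0.78), *Omg*, the oligodendrocyte myelin glycoprotein (0.60), *Acan* (0.95), *Calcrl* (1.03), *Gjb6* (2.13) and *Tecta*, an extracellular matrix gene (1.33). Leaving out the 6 day 2 libraries in turn, *Nes*, *Omg*, *Gjb6* and *Gldn* passed in 2 of 6 fits each and *Tecta* in 3, while the other 8 passed in all 6. *Tecta* and *Calcrl* were detected on 2 of the 6 day 2 arrays each, and *Gldn* on 3.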

How the results depend on the processing

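The count of 0 called probes at day 2 held with the deposited intensities on the log2 scale, without background correction, with scaling to the 75th percentile, with either filter, with fewer arrays in the fit and with an offset of 50. It was 3946 with array weights, which give less weight to arrays far from the mean of their label, and 2500 without both control 3 and PD169316 1. These libraries were left out because of their own values, so that neither count is an independent test. Leaving out single day 2 libraries gave 0 to 8 calls, the 8 without control 3, and 241 probes met the fold of the study with limma's unadjusted p, which is not the p the study used. The count for the change between the days, 407, was 18 with the deposited intensities, 2612 with array weights and 1632 without both libraries, and ran from 266 without control 2 to 599 without control 3 when single libraries were left out. The cause of these shifts was not tested.

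Of 188 genes named by rule, 114 were called with array weights, 104 without both libraries, 3 without control 3, and 0 under the other settings. The difference turned from -0.10 to 0.85 and 1.00 for *Mt3* and from -0.06 to 0.41 and 0.44 for *Gadd45g*, with array weights and without both libraries, and from -0.06 to 0.49 for *Trem2* with array weights. With the replicate number as a block, 0 probes were called at day 2 and 424 for the change between the days. The numbers were not taken as pairs. Deviations of same-numbered day 2 samples correlated at -0.534 to 0.558, with 2 of 3 pairs over 0.1. Those of different-numbered day 2 samples correlated at -0.729 to 0.677, with 2 of 6 over 0.1. These values follow which libraries lay with the other label, so that they cannot decide whether the numbers mark pairs. With 3 arrays a group and control 3 and PD169316 1 lying with the other label, a day 2 effect of PD169316 cannot be told apart from the spread of these arrays, and an exchange of these libraries was not tested. Dim genes such as *Calcrl*, *Clec7a* and *Wnt4* lay near the background on several arrays.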

Other observations

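The remaining gene lists had 0 members called at day 2 each, and some of their genes divided the arrays as the myelin and progenitor genes did. Of 14 genes of BMP signalling, *Smad7*, an inhibitory Smad, was at 8.13, 8.14 and 6.95 in the controls and at 8.32, 7.04 and 7.11 with PD169316. *Grem1*, a BMP antagonist, did not divide so, at 6.01, 4.96 and 4.91 in the controls and at 5.15, 5.30 and 4.88, but was detected on only 1 of the 6 arrays. Of 23 genes of ERK feedback and the immediate early response, *Ccn2*, a matricellular protein, was at 8.52, 8.43 and 9.33 in the controls and at 8.05, 9.28 and 9.10 with PD169316. Of 27 genes of ATF4 and the unfolded protein response, *Ddit3*, which encodes the stress transcription factor CHOP, was at 10.56, 10.62 and 11.27 in the controls and at 10.21, 11.15 and 11.12. Of 18 genes of the oxidative stress response, *Nqo1* was at 10.95, 11.01 and 10.22 in the controls and at 10.62, 10.14 and 10.27. In *Smad7*, *Ccn2*, *Ddit3* and *Nqo1* control 3 was nearer to PD169316 2 and PD169316 3 than to the other controls.

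Of 12 CDK inhibitors and p53 targets, *Gadd45a*, a DNA damage-inducible gene, was at 12.54, 12.49 and 11.96 in the controls and at 12.70, 11.81 and 11.77 with PD169316. Of 10 tubulins, *Tubb3* was at 9.16, 9.28 and 8.03 in the controls and at 9.23, 8.34 and 8.22. Of 10 genes of the interferon response, *Gbp2* had the widest range and did not divide so, at 5.79, 6.29 and 5.21 in the controls and at 5.79, 5.66 and 5.66, whereas *Irf1* was at 8.91, 8.89 and 9.38 in the controls and at 8.66, 9.39 and 9.22. The 16 cyclins, CDKs and G1/S regulators had a median difference of 0.08 and the 5 chondroitin sulfate proteoglycans one of 0.41, against 0.00266 over all probes.

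Other cell types were represented by 16 neuron markers, which summed to between 11300 and 12600 in the controls and between 11100 and 12400 with PD169316, with *Slc17a7* detected on 0 of 6 arrays. The 7 measured markers of fibroblasts, endothelium and pericytes summed to between 2560 and 3060 in the controls and between 2330 and 3200 with PD169316, with *Cdh5* and *Flt1* detected on 0 arrays. The widest range among them was that of *Lum*, a matrix proteoglycan, at 6.88, 5.70 and 6.46 in the controls and at 5.14, 5.92 and 6.13 with PD169316, which did not divide so. The 4 Schwann cell markers summed to between 3970 and 5910 and between 4020 and 6250. Of these *Pmp22*, a myelin protein gene of wide expression, was at 11.15, 11.26 and 12.13 in the controls and at 11.33, 12.26 and 12.09 with PD169316.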
